A study of Mus musculus with 8 samples.

Results

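The 10 genes described here, Spink1, Corin, Ntrk2, Lrtm2, Pls1, Gipc2, Sdcbp2, Smpdl3b, Bex4 and Cystm1, were measured in mouse liver. They are 10 of 55450 gene rows, of which 23328 had any count. They were named one by one, picked for low values in control livers and clear values in knockout livers, so the levels and fold changes between genotypes are what chose them and are given as a description, with no test. The 2 groups were 4 knockout livers (CebpaΔHep mice, Cre+, floxed Cebpa deleted in hepatocytes) and 4 control livers (Cebpa fl/fl mice, Cre-). Every mouse was 10 weeks old at the start, spent 5 days on liquid control food and the next 4 weeks on liquid food holding 5% (vol/vol) ethanol, so no liver here was without ethanol and genotype is the one difference in the labels. The labels do not name the promoter that drives Cre. RNA with poly(A) tails was sequenced from whole liver, and levels are given in TPM, a share of all transcripts that is scaled to transcript length. The picture of genes near silent in controls held for 9 of the 10, each under 1 TPM in every control. Cystm1 was at 15.2 to 21.3 TPM in the controls, a level above 83.6% of the genes with any count, and is better described as expressed in both groups and higher in knockouts.

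C/EBP alpha, the product of Cebpa, is a leucine zipper transcription factor that binds DNA as a dimer and keeps genes of the mature hepatocyte active, among them genes of glucose, lipid and nitrogen metabolism. Several of the 10 genes are better known from other tissues: the acinar pancreas for Spink1, the heart for Corin, neurons for Ntrk2, and the brush border of the intestine for Pls1. In a whole liver, more cells of a type and more RNA per cell cannot be told apart, which holds for each value that follows.

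The targeted gene followed the labels. Cebpa was at 3.02, 5.42, 3.87 and 3.57 TPM in knockout livers 1 to 4, against 158, 138, 141 and 161 TPM in control livers 1 to 4. Totals of expected counts ran from 21048350 in control 2 to 28148744 in knockout 4, so 1 count was worth 0.0341 to 0.0485 CPM, counts scaled to the library after normalization. The summed level of 15 hepatocyte markers was 120351 to 132129 TPM in knockout livers and 92809 to 121736 TPM in control livers. None of them was at 0, and Alb, Apoa2 and Apoa1 were the most abundant. Of the 15, 5 had a positive log2 fold change of knockout over control. The median was -0.13, against 0.0036 for all genes tested. The edgeR test described below called 0 of the 15, with 1 higher and 2 lower at an unadjusted p below 0.05. DESeq2 called 1, lower.

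Start regions of 7 of the 10 genes are in the RefSeq table for GRCm38.p6, as 8 windows of 300 bases that run from 250 bases before to 50 bases after a transcription start. Those of 4 genes are printed, 5′ to 3′ on the gene's strand, because they hold most of the motif matches found. They are the windows of Sdcbp2 (chr2:151572373-151572672, plus strand), Smpdl3b (chr4:132757122-132757421, minus strand), Corin (chr5:72504491-72504790, minus strand) and Bex4 (chrX:136138746-136139045, plus strand). Capitals mark matches to any of the motifs searched, on either strand.
Sdcbp2: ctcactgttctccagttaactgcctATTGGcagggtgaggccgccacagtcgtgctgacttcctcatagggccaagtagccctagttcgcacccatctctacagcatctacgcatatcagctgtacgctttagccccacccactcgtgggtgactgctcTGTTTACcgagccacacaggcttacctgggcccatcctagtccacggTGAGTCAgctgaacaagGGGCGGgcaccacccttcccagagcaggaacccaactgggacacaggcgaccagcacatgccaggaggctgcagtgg
Smpdl3b: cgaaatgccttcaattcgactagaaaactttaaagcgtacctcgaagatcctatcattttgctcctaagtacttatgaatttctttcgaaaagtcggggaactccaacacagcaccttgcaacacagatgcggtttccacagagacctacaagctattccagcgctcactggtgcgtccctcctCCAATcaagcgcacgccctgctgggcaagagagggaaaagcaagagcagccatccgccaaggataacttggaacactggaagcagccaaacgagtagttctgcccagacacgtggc
Corin: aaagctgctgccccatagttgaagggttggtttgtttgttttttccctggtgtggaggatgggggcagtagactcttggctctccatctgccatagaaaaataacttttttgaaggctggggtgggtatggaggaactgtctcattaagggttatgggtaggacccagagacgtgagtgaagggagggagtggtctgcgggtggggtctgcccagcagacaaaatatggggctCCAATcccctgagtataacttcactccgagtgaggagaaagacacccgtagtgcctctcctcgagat
Bex4: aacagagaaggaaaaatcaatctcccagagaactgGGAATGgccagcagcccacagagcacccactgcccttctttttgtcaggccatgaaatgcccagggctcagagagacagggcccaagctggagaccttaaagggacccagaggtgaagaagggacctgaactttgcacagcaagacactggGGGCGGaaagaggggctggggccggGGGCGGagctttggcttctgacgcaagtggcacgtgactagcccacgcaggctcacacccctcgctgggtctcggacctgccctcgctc
The motifs were searched as plain letters on both strands, and they do not overlap in the printed windows. The C/EBP half-site pair TTGCNNAA was in 0 of the 8 windows, against 10.8% of 32851 windows of all genes, and neither the HNF4A repeat CAAAGTCCA (0.475% of all windows) nor the TATA box TATAAA (13.6%) was in any of the 8. The CCAAT box was in 3 windows, those of Sdcbp2, Smpdl3b and Corin, against 37.4% of all windows. The GC box GGGCGG was in 4, those of Sdcbp2, Ntrk2, Bex4 and 1 of the windows of Lrtm2, against 35.7% of all. Sdcbp2 alone held the AP-1 letters TGANTCA (7.81% of all windows) and the FOXA letters TGTTTAC (3.65%), and Bex4 alone held the TEAD letters GGAATG (14.7%). The 8 windows thus had no motif in common. A match describes the letters in the window and is not a bound site. CpG content also varied, with an observed over expected ratio of 0.22 in the second window of Lrtm2 and 0.834 in that of Ntrk2, around a median of 0.384 over all windows.

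Spink1 and Corin encode proteins that block or act as proteases at or outside the cell surface. Spink1 encodes a small secreted Kazal inhibitor that blocks trypsin, and lies on chr18:43728082-43737557 of mm10, minus strand. Its level was 10.04, 13.5, 8.08 and 4.46 TPM in knockout livers 1 to 4, against 0, 0.12, 0.20 and 0 TPM in control livers 1 to 4. Every knockout liver was above every control liver, and the lowest knockout was 22.3 times the highest control. The knockout livers held 349 counts of Spink1 in all and the controls 3, a ratio per library size of 105.5 with an exact 95% interval of 35.8 to 514.1 that covers counting error only. The fitted log2 fold change was 6.54 with an SE of 0.61, and 7.46 without control 3, which held 2 of the 3 control counts. With 9.02 ± 3.78 TPM in knockouts (SD, n = 4), Spink1 was second in mean level to Cystm1 among the 10 genes there.

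Corin encodes a membrane serine protease that cuts the precursor of atrial natriuretic peptide in the heart (chr5:72300025-72504473, minus strand). It stood at 0.80, 1.18, 0.57 and 0.53 TPM in knockout livers 1 to 4, against 0.02, 0, 0.37 and 0.11 TPM in control livers 1 to 4. The groups did not overlap, and in TPM control 3 came close to the lower 2 knockouts. That value rests on 6 counts assigned a short transcript length of 1061 bases, and in CPM the lowest knockout was 0.819 and the highest control, control 3, 0.253. Counts were 63, 98, 43 and 24 in knockouts and 1, 0, 6 and 4 in controls, and the log2 fold change of knockout over control was 4.22 with an SE of 0.69, the widest among the 10, and 4.87 without control 3. An antisense gene, Gm20647, shares 147 exon bases with Corin and had 0 counts in every liver.

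Ntrk2 and Lrtm2 encode membrane proteins. Ntrk2 (chr13:58806569-59133970, plus strand) encodes TrkB, the receptor tyrosine kinase for brain-derived neurotrophic factor. Its TPM was 1.12, 1.25, 0.26 and 0.31 in knockout livers 1 to 4, against 0.07, 0.06, 0.26 and 0.10 in control livers 1 to 4. Knockouts 1 and 2 were high, knockouts 3 and 4 low, and knockout 3 equalled control 3. In CPM, which is not scaled to transcript length, the lowest knockout was 1.33 and the highest control 0.843, so the overlap appears in TPM and not in CPM. The log2 fold change was 2.48 with an SE of 0.51, and the variation over knockout livers was the widest of the 10, with a coefficient of variation of 71.1%.

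Lrtm2 (chr6:119315133-119330766, minus strand) encodes a membrane protein with leucine-rich repeats. It was at 2.71, 3.16, 3.22 and 1.49 TPM in knockout livers 1 to 4, against 0.03, 0.04, 0.11 and 0.03 TPM in control livers 1 to 4. Knockout 4 was the lowest of its group and control 3 the highest of the other, with no overlap. The log2 fold change was 5.43 with an SE of 0.41, or 43.1-fold, and 6.06 without control 3.

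Lrtm2 lies within Cacna2d4, a calcium channel subunit gene on the opposite strand (chr6:119236526-119352407, plus strand), and the exons of the pair share 0 bases. Cacna2d4 was not among the 10 genes. It was under the 0.429 CPM of the filter on low counts in every control, so it was tested through its knockout livers alone, which bears on the p that follows. Its TPM was 0.84, 0.88, 0.78 and 0.26 in knockout livers 1 to 4, against 0.02, 0, 0.01 and 0 in control livers 1 to 4. Counts summed to 96 in knockouts and 3 in controls, a ratio per library size of 29.0 with a 95% interval of 9.64 to 143. It was called higher by edgeR's quasi-likelihood test with Benjamini-Hochberg adjustment, at a log2 fold change of 4.70 (SE 0.74) and an adjusted p of 0.014. Without 1 liver at a time the adjusted p was at most 0.046, without control 3. Both genes were lowest in knockout 4 among the knockouts. The labels name a stranded library kit, but the strand setting of the counting is not given in the sources used here, so reads from introns or unannotated exons of one gene counted to the other were not tested.

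Pls1, Gipc2 and Sdcbp2 encode proteins that link membranes or their receptors to the cell's inner scaffold. Pls1 (chr9:95752642-95845311, minus strand) encodes plastin 1, which bundles actin filaments in microvilli. Its level was 9.95, 7.94, 2.77 and 2.92 TPM in knockout livers 1 to 4, against 0.25, 0.04, 0.21 and 0.27 TPM in control livers 1 to 4. Knockouts 1 and 2 were well above knockouts 3 and 4, and all were above the controls. Its log2 fold change was 4.64 with an SE of 0.57.

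Gipc2 (chr3:152093533-152166230, minus strand) encodes a PDZ domain adaptor of a family that couples membrane receptors to myosin VI. It reached 3.11, 3.94, 1.05 and 1.98 TPM in knockout livers 1 to 4, against 0.08, 0.30, 0.35 and 0.39 TPM in control livers 1 to 4. Knockout 3 was the lowest of its group and still above each control. Knockout over control gave a log2 fold change of 4.05 with an SE of 0.52. Exons of Gm31881 and D630002J18Rik on the other strand cover 221 and 583 bases of Gipc2, and both had 0 counts in every liver.

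Sdcbp2 (chr2:151572622-151590005, plus strand) encodes syntenin 2, a PDZ domain protein that binds phosphoinositides and syndecan tails. It was at 2.98, 7.49, 2.44 and 2.61 TPM in knockout livers 1 to 4, against 0.09, 0.05, 0.53 and 0.26 TPM in control livers 1 to 4. Knockout 2 stood far above the other 3 knockouts, which lay close together, and the groups did not overlap. Its log2 fold change was 3.86 with an SE of 0.58, and 3.37 without knockout 2 or 4.61 without control 3.

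Smpdl3b (chr4:132732966-132757252, minus strand) encodes a phosphodiesterase of the acid sphingomyelinase family that sits on the outer membrane. Its TPM was 4.03, 4.44, 4.31 and 2.83 in knockout livers 1 to 4, against 0.48, 0.20, 0.38 and 0.47 in control livers 1 to 4. Knockouts 1 to 3 were nearly level and above knockout 4, and the groups did not overlap. The log2 fold change was 3.20 with an SE of 0.27, and after Cystm1 its knockout values varied least, with a coefficient of variation of 18.8%.

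Bex4 and Cystm1 encode small proteins. Bex4 (chrX:136138996-136140443, plus strand) belongs to a family of short proteins first known from the brain. It was at 8.26, 8.77, 6.15 and 2.16 TPM in knockout livers 1 to 4, against 0.67, 0.10, 0.17 and 0.33 TPM in control livers 1 to 4. Knockout 4 was far below the other knockouts and above every control. A log2 fold change of 4.14 with an SE of 0.59 was fitted, and 4.80 without control 1. Its expected counts in knockouts were 90.79, 101.92, 67.63 and 30.12, not whole numbers, as occurs where RSEM divides reads shared with another gene, so its level carries that uncertainty.

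Cystm1 (chr18:36342520-36403097, plus strand) encodes a short cysteine-rich protein with a membrane anchor. It stood at 52.3, 66.6, 50.4 and 56.0 TPM in knockout livers 1 to 4, against 15.5, 21.3, 15.2 and 17.0 TPM in control livers 1 to 4. Every knockout was above every control, and within each group the livers lay close together. The log2 fold change was 1.63 with an SE of 0.12, or 3.09-fold, the smallest change and the smallest error among the 10. Its coefficient of variation over knockouts was 12.8%.

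**Figure D1:**
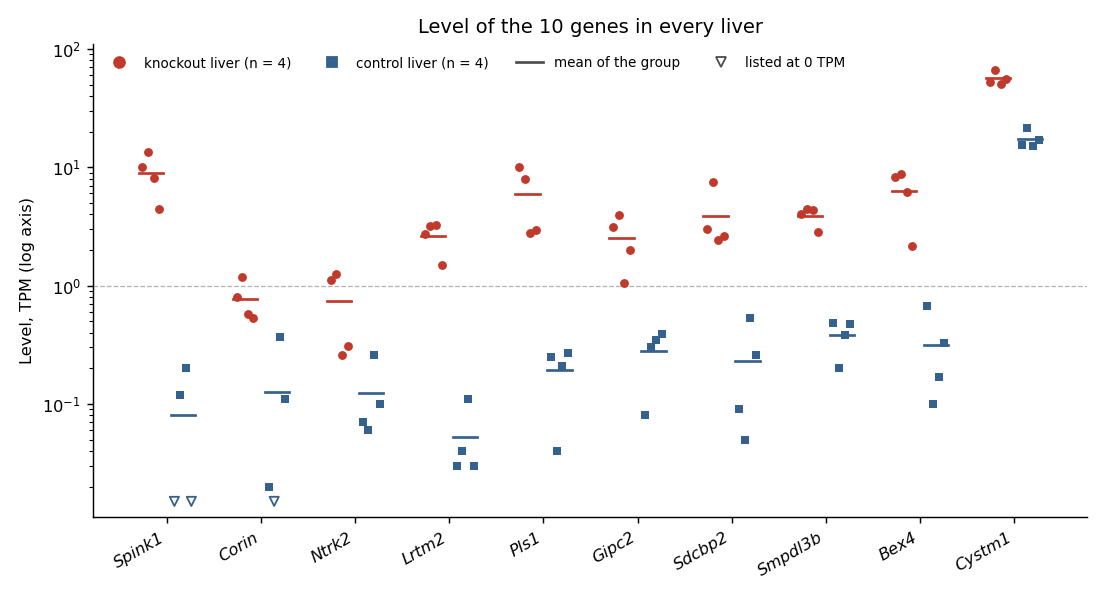
Level in TPM (log axis) of each of the 10 genes in 4 knockout livers (circles) and 4 control livers (squares), with the mean of each group as a bar and livers listed at 0 TPM as open triangles at the foot. The dashed line is 1 TPM: Cystm1 is above it in every liver, and Corin and Ntrk2 are below it in some knockouts.

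All 10 genes passed the filter on low counts, which asked for about 0.429 CPM in enough livers. Of these, 9 were under that value in at least 1 control and 5, Spink1, Lrtm2, Corin, Bex4 and Gipc2, in every control, so these 9 passed through the knockout livers. All 10 were called higher by edgeR at an adjusted p below 0.05, as were 0.849% of the 13303 genes tested. In CPM every knockout was above every control for all 10, against 5.54% of genes tested. Since this contrast chose the genes, nothing is read from either count. A stricter description, under 1 TPM in every control and at least 1 TPM in every knockout, fitted 46 genes, or 0.197% of those with any count, and 7 of the 10. Just inside that limit was Gipc2, with a lowest knockout of 1.05 TPM, followed by Lrtm2 at 1.49 TPM. Outside it were Corin and Ntrk2, whose lowest knockouts were 0.53 and 0.26 TPM, and Cystm1, which was over 1 TPM in every control.

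The same livers were high or low for many of the 10 genes. Knockout 2 had the highest TPM for 8 of the 10, while Pls1 was highest in knockout 1 and Lrtm2 in knockout 3. Knockouts 3 and 4 had the lowest TPM for 5 genes each. In CPM, Bex4 was highest in knockout 1 and Smpdl3b in knockout 3. Pls1 and Cystm1 were lowest in knockout 4 in CPM, so these counts depend on the scale. Relative to a gene's own knockout mean, the median over the 10 genes was 1.08, 1.44, 0.818 and 0.618 in knockouts 1 to 4. Highest over lowest knockout ran from 1.32 for Cystm1 to 4.81 for Ntrk2. Among the controls, control 3 was highest for 5 genes and control 2 lowest for 6. Knockout 4 was the deepest library and control 2 the shallowest. The part of depth in this order was not tested, and the order of the livers over all genes was not counted.

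**Figure D2:**
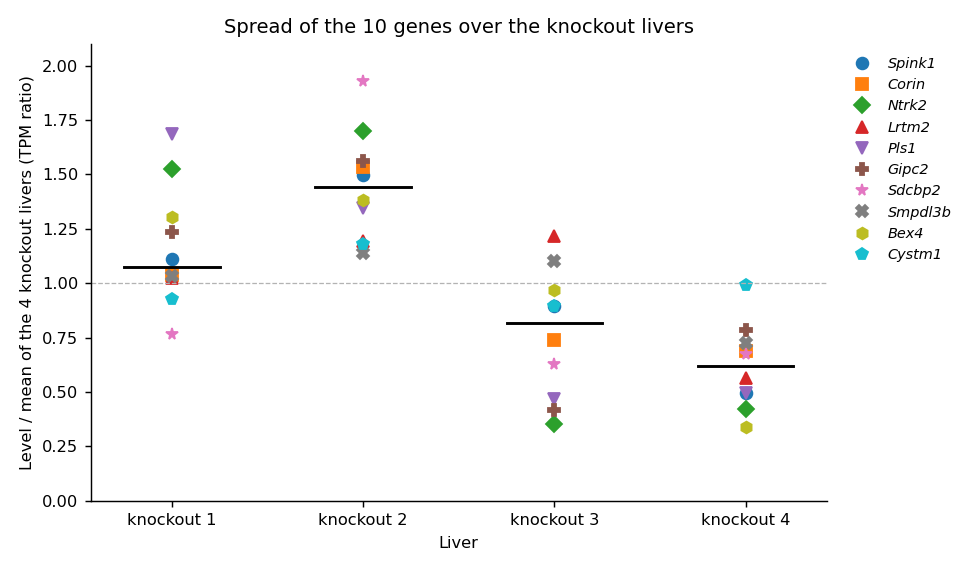
Level of each of the 10 genes in each knockout liver, divided by its mean over the 4 knockout livers (TPM ratio), with the median over the genes as a bar. The bars stand at 1.08, 1.44, 0.818 and 0.618, and Cystm1 stays nearest to 1 in knockout 4.

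Which transcripts of a gene were used can be read from the weighted transcript length in the deposited tables, a measure that did not choose the genes. Cystm1 alone had at least 20 counts in every liver, and its length was 824 ± 16.8 bases in knockouts and 812 ± 10.3 bases in controls (SD, n = 4 each). The difference of 11.9 bases gave p = 0.286 in a two-sided exact permutation test over 70 splits, whose smallest possible p is 0.0286. For the other genes the control counts were too few, and lengths are given for the knockouts as a description. Ntrk2 was assigned a length of 5374, 5278, 6846 and 6846 bases in knockouts 1 to 4. The length 6846 is that of Ntrk2-202, which codes 476 residues, against 821 residues for the longest protein of the gene. TrkB is known to occur in a full form with the kinase domain and in short forms without it. The values in knockouts 3 and 4, which held 29 and 44 counts, equal that 1 short form within 0.011 bases, and those of knockouts 1 and 2, which held 98 and 113 counts, fall between transcripts. In controls 1, 2 and 4 the length was also 6846 bases, on 6 to 12 counts, and in control 3 it was 4338 bases on 20 counts. This lower length goes with the higher TPM of control 3 relative to its CPM. Gipc2 was assigned wholly to its coding transcript of 1596 bases in knockouts 1 to 3 and a mean of 1266 bases in knockout 4. Corin was assigned 4862 and 4855 bases in knockouts 1 and 2, 4639 bases in knockout 3 and 2280 bases in knockout 4, the last on 24 counts. Spink1, Bex4, Sdcbp2 and Smpdl3b have 1 annotated transcript each.

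Genes beside the 10 were taken by position, up to 2 tested protein coding genes on each side within 1000000 bases, without overlapping ones. None of these 39 neighbours was called by edgeR, where 2.06% of all genes tested were called, 0.849% higher and 1.21% lower. With libraries scaled by size alone the split of all calls turned, to 161 higher and 115 lower, against 113 and 161. At an unadjusted p below 0.05 there were 6 of the 39 (15.4%), 4 of them higher, against 18.5% of all genes with 9.61% higher, and DESeq2 called 2, 1 higher and 1 lower. Their log2 fold changes ran from -0.55 (Paqr9, beside Pls1) to 1.04 (Tceal8, beside Bex4), with a median of 0.08.

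The closest neighbours had small fold changes. Xkr8, 420 bases from Smpdl3b, averaged 2.49 TPM in knockouts and 2.96 TPM in controls, a log2 fold change of -0.12 (SE 0.13). Pfdn1, 579 bases from Cystm1, averaged 27.9 TPM in knockouts and 23.3 TPM in controls, a log2 fold change of 0.14 (SE 0.11). Log2 fold changes ran from -0.18 for Nfxl1 to 0.31 for Rpa2 among Nfxl1 (8828 bases from Corin), Fkbp1a (10930 from Sdcbp2), Rpa2 (11080 from Smpdl3b), Dnajb4 (12281 from Gipc2), Atr (12286 from Pls1) and Adipor2 (22384 from Lrtm2). Tceal8, 28541 bases from Bex4 and of a related family, averaged 44.5 TPM in knockouts and 20.0 TPM in controls, with a log2 fold change of 1.04 (SE 0.28) and an edgeR adjusted p of 0.105. Spink5 and Eif3j2 beside Spink1 lay 225678 and 250286 bases away, and had log2 fold changes of 0.50 (SE 0.66) and -0.06 (SE 0.11). Rmi1 and Agtpbp1 beside Ntrk2 lay 395421 and 311772 bases away, and had log2 fold changes of 0.10 (SE 0.10) and -0.26 (SE 0.13).

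**Figure D3:**
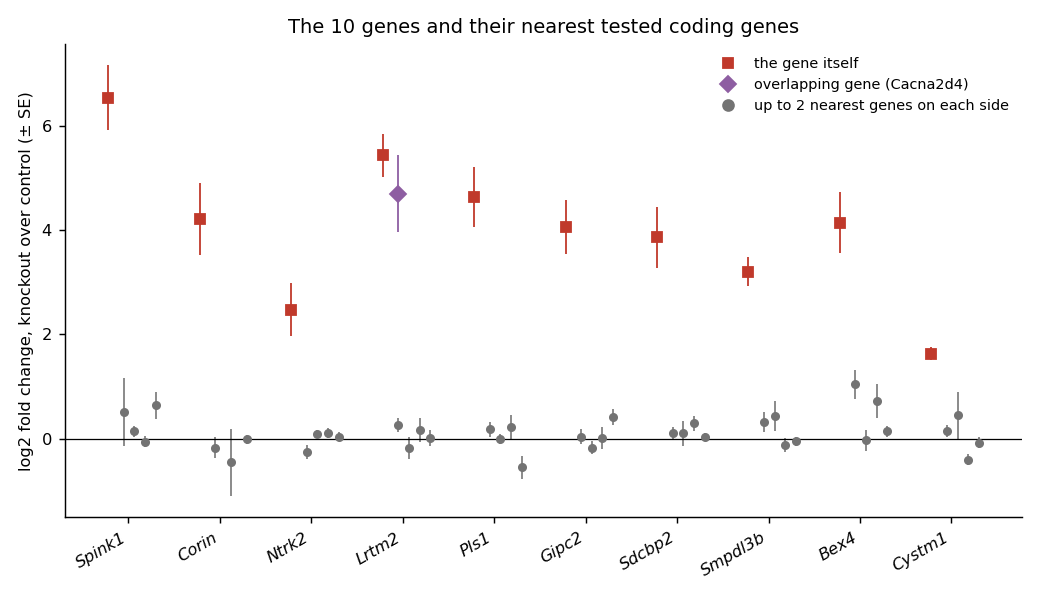
Log2 fold change of knockout over control, with its SE, for each of the 10 genes (squares), for Cacna2d4 that overlaps Lrtm2 (diamond) and for the nearest tested coding genes on each side (circles). The neighbours lie between -0.55 and 1.04; the value for Spink1 rests on 3 control counts.

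Relatives and partners of the 10 genes other than Cystm1, 182 genes in 9 lists, were chosen by known function. No list was made for Cystm1. Of the 117 that were tested, edgeR called 1, lower (0.855%, against 2.06% of all genes), and 28 had an unadjusted p below 0.05 (23.9%, against 18.5%). DESeq2 called 11 of them, 6 higher and 5 lower (9.40%, against 6.45% of all genes). Whether the share is under or over that of all genes thus depends on the tool and, within edgeR, on the threshold. The median log2 fold change of these relatives was -0.01, against 0.0036 for all genes tested. The gene called was Npr2, a receptor of natriuretic peptides. Its TPM was 14.0, 12.7, 14.6 and 18.8 in knockout livers 1 to 4, against 30.4, 41.0, 29.5 and 30.9 in control livers 1 to 4, with a log2 fold change of -1.23 (SE 0.16) and an edgeR adjusted p of 0.0059. The groups did not overlap, and the call held without each liver in turn.

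Around Spink1, a list of 22 genes held Kazal inhibitors and trypsin family genes, and also Egfr, F2rl1 and Enpep. Of the 22, 16 were listed at 0 in every liver, among them Prss1, Prss2, Prss3, Ctrb1 and Ctrc, which encode digestive proteases. The 3 tested were Spink5, Egfr and Enpep, so no trypsin family gene was tested. Of these 3, 0 had an unadjusted p below 0.05 in edgeR and 0 were called by DESeq2. Corin's substrates Nppa and Nppb were listed at 0 in every liver. Among 16 tested genes of the natriuretic system and membrane proteases, 7 had an unadjusted p below 0.05 in edgeR, 5 of them higher. Of all genes tested, 18.5% had such a p. DESeq2 called 4 of the 16, 3 higher and 1 lower (25.0%, against 6.45% of all genes). The edgeR adjusted p values were 0.0621 for St14 and 0.0672 for Tmprss2, both membrane serine proteases.

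Several paralogs of the 10 genes had clear levels in both groups. Lcp1 and Pls3, the other plastins, averaged 47.0 and 28.8 TPM in knockouts and 44.0 and 29.99 TPM in controls. Of 17 plastin and microvillus genes tested, edgeR called 0 (2 at an unadjusted p below 0.05) and DESeq2 1, lower, and Anks4b and Msn had the smallest p. Gipc1 averaged 6.61 TPM in knockouts and 5.06 TPM in controls, and of 15 genes of the GIPC and myosin VI list edgeR called 0 (3 at an unadjusted p below 0.05) and DESeq2 1, higher, with Plxnd1 and Tom1 the nearest. Sdcbp, syntenin 1, averaged 34.3 TPM in knockouts and 29.9 TPM in controls, and of 14 syntenin and syndecan genes edgeR called 0 (5 at an unadjusted p below 0.05) and DESeq2 2, both lower, Sdc2 and Arf6 having the smallest p. Smpdl3a, the closest relative of Smpdl3b, averaged 30.5 TPM in knockouts and 25.2 TPM in controls. Of 25 sphingomyelin and ceramide enzymes tested edgeR called 0 (6 at an unadjusted p below 0.05) and DESeq2 2, 1 higher and 1 lower, the nearest being Sptlc2 at an edgeR adjusted p of 0.0534 and Acer3 at 0.0719.

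The neurotrophin list, with ligands and adaptors of Trk receptors, had 0 of 15 tested genes called by edgeR or DESeq2 (2 at an unadjusted p below 0.05 in edgeR), and the smallest p values were those of Ntf3 and Bdnf, at edgeR adjusted p values of 0.15 and 0.253. Ntrk3, which encodes another Trk receptor, averaged 0.120 TPM in knockouts and 0.035 TPM in controls. Of 5 tested genes of the Bex and Tceal list, which also holds Ngfr, the p75 co-receptor of Trk receptors, edgeR called 0 and DESeq2 1, higher, and 2, Tceal8 and Ngfr, had an unadjusted p below 0.05 in edgeR, both higher. Bex3 averaged 1.43 TPM in knockouts and 1.15 TPM in controls. Bex1 and Bex2 were under the filter and not tested. They averaged 0.615 and 0.28 TPM in knockouts and 0.12 and 0.16 TPM in controls, each with overlap between the groups. Of 7 tested leucine-rich repeat genes 0 were called by edgeR or DESeq2 (1 at an unadjusted p below 0.05 in edgeR), and Lrrn3 and Lrig3 had the smallest p.

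Markers of the cell types in which these genes are best known were looked at beside them. Of 20 pancreatic acinar markers 13 were listed at 0 in every liver, and the summed level was 54.5, 55.3, 56.4 and 36.3 TPM in knockout livers 1 to 4, against 57.9, 33.6, 35.0 and 23.3 TPM in control livers 1 to 4. Nearly all of that sum was Cela1, an elastase gene that averaged 49.4 TPM in knockouts and 36.8 TPM in controls. Pnliprp1 and Cela2a, next in level, averaged 0.915 and 0.212 TPM in knockouts and 0.202 and 0.282 TPM in controls. Pnliprp1 was at 0.56 to 1.39 TPM in knockouts and 0 to 0.45 TPM in controls, without overlap, and was under the filter. For the intestinal epithelium 7 of 19 markers were listed at 0 everywhere, including Cdx1, Cdx2 and Sis, and the sum was 172 to 337 TPM in knockouts and 170 to 701 TPM in controls, most of it Apoa4, Fabp2 and Tff3. Sums of neuronal and Schwann cell markers were 5.0 to 6.4 TPM in knockouts and 3.9 to 7.3 TPM in controls, most of it Syt1, with Sox10, Gap43 and Elavl4 at 0 in every liver. For cardiac muscle the sums were 6.2 to 9.4 TPM in knockouts and 6.3 to 8.2 TPM in controls, most of it Gata4, then Myl4 and Tnnt2, with Myh6, Myh7, Myl2 and Ryr2 at 0 in every liver. In each of these 4 lists the sums of the groups overlapped. Each sum was mostly the abundant genes named, so it says little about the rest of its list. Only 1 pancreatic, 5 intestinal, 2 neuronal or Schwann cell and 2 cardiac markers passed the filter and were tested. Of these edgeR called 0 and DESeq2 1, an intestinal marker, higher. In edgeR 1 had an unadjusted p below 0.05, the intestinal marker Slc5a1. It was at 0.70 to 0.81 TPM in knockouts and 0.08 to 0.51 TPM in controls, without overlap. The other markers could not be called.

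The summed markers of bile duct cells and of fetal liver were higher in every knockout than in any control, while most single markers were not called. The 21 cholangiocyte and ductular markers summed to 307, 524, 215 and 309 TPM in knockout livers 1 to 4, against 115, 152, 102 and 109 TPM in control livers 1 to 4, and 5 of 15 tested, Spp1, Krt19, Epcam, Pkhd1 and Bicc1, were called higher by edgeR (7 by DESeq2), where edgeR called 0.849% of all genes tested higher. At an unadjusted p below 0.05 in edgeR, 11 of the 15 were higher and 0 lower, against 9.61% of all genes tested higher. Their median log2 fold change was 1.03, against 0.0036 for all genes tested. Krt7 and Sox9, among these 11, and Krt23 were not called, with edgeR adjusted p values of 0.221, 0.212 and 0.936. Most of the sum was Spp1, which encodes osteopontin, at 210, 409, 114 and 209 TPM in knockouts 1 to 4, against 36.6, 61.1, 22.1 and 24.7 TPM in controls 1 to 4. Anxa4 and Aqp1, next in level, averaged 34.4 and 30.6 TPM in knockouts and 29.5 and 26.5 TPM in controls. None of the 21 was at 0 in every liver. Among the knockouts the sum was highest in knockout 2, which was the highest liver in TPM for 8 of the 10 genes. It was lowest in knockout 3, which was the lowest liver in TPM for 5 of them. Knockout 4, the lowest liver for the other 5, had nearly the same sum as knockout 1. The 20 fetal liver markers summed to 45.0, 64.0, 59.3 and 67.8 TPM in knockout livers 1 to 4, against 11.8, 17.1, 13.3 and 17.2 TPM in control livers 1 to 4, with 3 of 13 tested, Lpl, H19 and Scd2, called higher by edgeR (DESeq2 called 5 higher and 1 lower) and Lin28b at 0 in every liver. Most of this sum was Lpl, a lipase gene, at 24.3, 40.8, 43.9 and 53.1 TPM in knockouts 1 to 4, against 5.55, 6.58, 4.4 and 7.53 TPM in controls 1 to 4. At an unadjusted p below 0.05 in edgeR, 6 of the 13 fetal markers tested were higher and 1 lower. Afp, Igf2 and Gpc3, better known fetal genes, were not called, with edgeR adjusted p values of 0.477, 0.349 and 0.694, and Igf2bp2 had a log2 fold change of -0.89 at an edgeR adjusted p of 0.0755. Cd24a is in both lists. Stellate cell markers summed to 303, 450, 283 and 296 TPM in knockouts 1 to 4, against 216, 154, 306 and 265 TPM in controls 1 to 4, with 0 of 17 tested called by edgeR (7 at an unadjusted p below 0.05, all higher; 1 by DESeq2) and Ecm1, Dcn and Colec11 the most abundant. The part of these cell types in the level of the 10 genes was not tested.

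**Figure D4:**
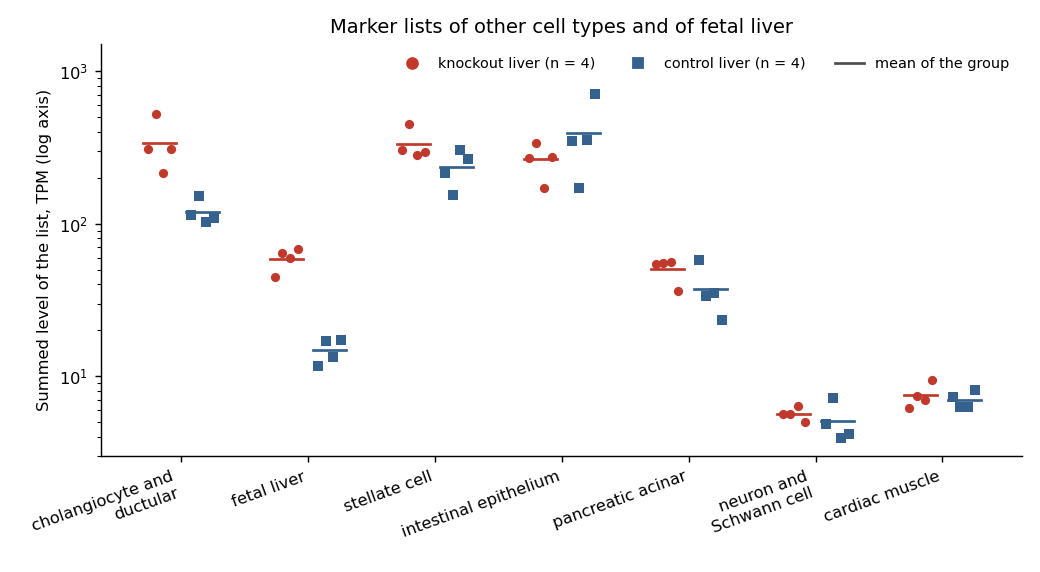
Summed TPM (log axis) of 7 marker lists in 4 knockout livers (circles) and 4 control livers (squares), with the mean of each group as a bar. The cholangiocyte and fetal liver lists do not overlap between the groups, and the other 5 lists do.

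The genes whose pattern was most like that of the 10 were found by the root mean square difference, over the 8 livers, between a gene's centred log2 CPM and the mean centred log2 CPM of the 10. Cacna2d4 was nearest, at 0.499. After it came Gstm3, a glutathione transferase, at 0.577, with 331 ± 121 TPM in knockouts and 43.1 ± 9.12 TPM in controls (SD, n = 4 each). Cyp2c55, a cytochrome P450, was at 0.594, with 9.91 ± 3.83 TPM in knockouts and 1.13 ± 0.288 TPM in controls. Fndc10 was at 0.610 and Msmp at 0.626. Among the 10 genes themselves the same measure ran from 0.326 for Gipc2 to 1.07 for Cystm1, which has the smallest change.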

How the data were processed

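Liver RNA with poly(A) tails was sequenced from 4 knockout and 4 control livers with a stranded mRNA kit, per the labels' protocols. Per the submitters' processing notes, the tools were RSEM 1.2.22, STAR 2.5.1, Trimmomatic 0.36, Picard 1.84 and DESeq2, on build mm10. Neither a strand setting nor an annotation release is given in the sources used here. The deposited tables hold RSEM expected counts (estimated counts per gene that divide shared reads) and the authors' TPM values, with a weighted and an effective transcript length per gene. Rows matched GENCODE M21 by identifier, for coordinates on mm10.

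Expected counts were rounded and fitted with edgeR 4.0.16 in R 4.3.3 (TMM, filterByExpr with a minimum count of 10 and total of 15, robust quasi-likelihood test, two-sided, Benjamini-Hochberg over 13303 genes, threshold 0.05). DESeq2 1.42.0 and limma 3.58.1 were alternatives. The code was tested on simulated data. CPM and count ratios used library sizes scaled by TMM. Each SE is the absolute log2 fold change divided by the square root of the quasi-likelihood F statistic, and was not given by the fit itself. The 10 genes and all lists were chosen with earlier results of these data known. Named genes were all 10, every called gene of a list of relatives or else the 2 with the smallest p, the nearest or called neighbours, the 3 most abundant genes of each marker list, and the 5 most alike genes; a few genes that this rule or the lists would name are not reported here. Genes named beyond these, such as paralogs and marker genes, were chosen after their values were seen. Livers of a group differed by more than sampling noise, so each was 1 replicate. The labels do not say outright that each liver is from a separate mouse, so p-values measure the spread between these samples. Intervals cover counting error only. The labels name no batch.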

Additional observations from a re-analysis of the deposited data

Results flagged for a closer look

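Of 38 groups of 4 livers tested with Dixon's rule for a lone value, 4 held a liver far from the other 3, and chance alone flags about 1 in 20 groups. Sdcbp2 was at 7.49 TPM in knockout 2, against 2.44 to 2.98 TPM in the other knockouts. Lrtm2 was at 0.11 TPM in control 3, against 0.03 to 0.04 TPM in the other controls, a level that rests on 7 counts. The summed stellate cell markers were at 450 TPM in knockout 2, against 283 to 303 TPM in the other knockouts. The summed pancreatic acinar markers were at 36.3 TPM in knockout 4, against 54.5 to 56.4 TPM in the other knockouts.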

How the results depend on the processing

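All 10 genes kept a positive log2 fold change in each setting run, lowest on the log2(TPM + 1) scale, where a pseudocount of 1 shrinks low genes (Corin 0.65, Ntrk2 0.58). Since the genes were chosen for this difference in these same livers, nothing is read from the kept sign. The count of all genes called, 274 (113 higher, 161 lower), was 176 with a replicate block, 858 by DESeq2, 431 without control 2 and knockout 4 together, and 108 (without knockout 2) to 372 (without knockout 4) when 1 liver was left out. Scaling by library size alone gave 161 higher and 115 lower, and limma-trend 151 and 86. Of the relatives, 1 was called, against 2 by library size alone, 3 with no filter, 2 with a replicate block, 5 without control 2 and knockout 4 together, 11 by DESeq2 and 1 to 3 with 1 liver left out. Of the neighbours 0 were called, against 2 without control 2 and knockout 4 together, 2 by DESeq2 and 0 to 1 with 1 liver left out. The 46 genes switched on at 1 TPM became 101 without control 2 and knockout 4 together and 53 to 83 with 1 liver left out, as fewer livers have to meet the limit; limits of 0.5 and 2 TPM, added like these after seeing the data, gave 49 and 32 genes, each sharing 7 with the 46. The cause of the other shifts was not tested. Cystm1's length difference was 7.64 to 20.0 bases with 1 liver left out. Same-numbered livers deviated with correlations of 0.207, 0.009, -0.024 and -0.067, against -0.154 to 0.145 for livers of unlike number. These few values cannot settle whether same-numbered livers were handled together. Control values of 0 to 20 counts limit the fold changes of 9 of the 10 genes.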

Other observations

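Beside 7 of the 10 genes, 39 others were under 1 TPM in every control liver and at least 1 TPM in every knockout liver, 37 of them with a gene name, while 10 genes met the reverse. By mean TPM in knockouts the highest of the named ones was Cyp2d12, a cytochrome P450, with 10.2 ± 10.7 TPM in knockouts and 0.675 ± 0.266 TPM in controls (SD, n = 4 each), a spread over knockouts as wide as its mean. H19, an imprinted long RNA of fetal liver, had 4.41 ± 2.43 TPM in knockouts and 0.255 ± 0.107 TPM in controls. Wfdc15b had 2.48 ± 0.3 TPM in knockouts and 0.22 ± 0.336 TPM in controls, and Casp12, an inflammatory caspase gene, 2.30 ± 0.67 TPM in knockouts and 0.775 ± 0.0998 TPM in controls. The next were Ly6c1, Zfp651, Msmp, Stk39, Pvt1 and Tes. All of these were chosen by the limit on these same values and carry no test.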
